A study of Mus musculus with 9 samples.

Results

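The genes described here are 9 that make, degrade or sense sphingosine-1-phosphate or that hold T cells in the thymus or let them in and out: S1pr1, S1pr4, S1pr5, Sphk1, Sphk2, Sgpl1, Cd69, Selplg and Cd44. They were chosen by name, and every probe set that the array's annotation gives to 1 of these genes alone was taken, 15 of 34945 such probe sets. All 9 genes, of 18193 named on the array, passed the filter on low levels. The RNA came from iNKT cells (invariant natural killer T cells) that were sorted from thymus, in mice 8 to 12 weeks old, and was read on 9 arrays. Of these, 5 came from Utx wildtype mice (WT1 to WT5) and 4 from Utx knockout mice (KO1 to KO4), each a biological replicate by its title. Kdm6a, an X-linked gene, encodes Utx, an enzyme that erases a repressive methyl mark of histone H3, and the comparison asks how expression differs when it is lost. Not given in the sources used here are the allele, the Cre line or cell type in which Utx was deleted, the strain, and whether animals were pooled. The titles name 3 batches: batch 1 holds WT1 and KO1, batch 2 holds WT2, KO2, KO3 and KO4, and batch 3 holds WT3, WT4 and WT5.

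Sphingosine-1-phosphate is a lipid that is abundant in blood and lymph and scarce inside tissues, and T cells leave the thymus by following this gradient with the receptor S1PR1. The sphingosine kinases make the lipid, the lyase SGPL1 breaks it down for good, and CD69, a surface protein of activated and newly selected cells, binds S1PR1 and takes it off the surface. The transcription factor KLF2 switches on S1pr1 as thymocytes mature. iNKT cells are T cells that recognise lipids on CD1d. Many of them stay in the thymus after they mature, and CD44 marks the later stages of that maturation.

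Array medians over all probe sets ran from 5.97 to 6.09 (log2), and interquartile ranges from 3.45 to 3.84 for wildtype and 3.80 to 4.29 for knockout arrays. Kdm6a did not separate the genotypes on the probe set of highest level (9.97 ± 0.13 in wildtype, n = 5, and 9.94 ± 0.21 in knockout, n = 4, log2, mean ± SD), and which part of the gene was deleted is not given, so it does not check the labels. Cd3e, a chain of the T cell receptor complex, read 12.70 to 13.01 on all arrays, and Zbtb16, which encodes the iNKT factor PLZF, 10.46 to 11.18. Of 11 iNKT markers tested, Il2rb, an interleukin receptor chain gene (-1.01, adjusted p = 0.0231 by limma), and Tbx21 (-1.08, 0.0276) fell, and the surface marker gene Thy1 (0.89, 0.0391) rose. Markers of double-positive thymocytes, the earlier CD4 and CD8 positive stage, had a positive difference in 11 of 11 cases, and 8 of 11 rose, against 7.88% of all genes. Their summed level was 14.10 to 14.62 in wildtype and 15.06 to 15.60 in knockout samples (log2). This and the other marker lists were chosen with earlier results of these data known. Of 13 macrophage and dendritic cell markers, 3 rose and 11 had a positive difference, with a summed level of 9.49 to 9.95 in wildtype and 10.88 to 11.69 in knockout samples. Csf1r, a macrophage receptor gene, read 3.57 to 5.22 and 8.0 to 9.40, while the dendritic cell genes Flt3 and Siglech differed by -0.063 and -0.14. Itgax (0.93, adjusted p = 0.159 by limma) and Zbtb46 (0.18, 0.623) of the same list had positive differences that did not pass. Of 7 B cell markers, Cd79a (1.78, adjusted p = 0.0156 by limma) and Cd79b (1.61, 0.0181), chains of the B cell receptor, rose. Cd22, Ms4a1 and Blnk were higher on every knockout array without passing, and the factor genes Pax5 (-0.17) and Ebf1 (-0.048) overlapped. The summed B cell level was 9.51 to 10.11 in wildtype and 10.36 to 11.45 in knockout samples. Xist, expressed from the inactive X of females, read 4.80 to 6.79 in wildtype and 7.84 to 10.07 in knockout samples. The Y-linked gene Eif2s3y read 10.32 to 13.58 and 7.07 to 9.84, although the labels give sex-matched animals. For the Y-linked genes Kdm5d and Uty the groups overlapped. In batch 1 (WT1 and KO1) the knockout minus wildtype difference was 5.27 for Xist, -6.51 for Eif2s3y, -4.72 for Kdm5d and -4.36 for Uty. In batch 2 these differences were 1.54, -0.53, 0.22 and 0.43. The contrast was thus largest in batch 1, and Kdm5d and Uty went the other way in batch 2. None of the 9 genes lies on a sex chromosome. WT1 and KO1 deviated from their group means in opposite directions (r = -0.922 across the 14524 genes tested, which are not independent replicates). The sources used here do not say whether the values were adjusted for batch before deposit. If they were, the differences within batches and the p-values below would not have their plain meaning. In bulk samples, fewer cells of a type and less RNA per cell cannot be told apart, and the part of cell mixture, sex and batch in the results below was not tested.

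Of the 9 genes, 3 fell in knockout samples (S1pr1, S1pr4 and Cd44) and 1 rose (S1pr5), by limma with batch as a factor at an adjusted p under 0.05 over all genes tested. Over all 14524 genes, 11.3% were called, 3.37% lower and 7.88% higher. The 9 genes were chosen with earlier results of these data known, so their counts are a description only. The other 5 genes, which encode the enzymes, CD69 and the selectin ligand PSGL-1, did not pass. Their differences ran from -0.28 to 0.22 (log2). The median difference was -0.24 over the 9 genes and 0.11 over all genes. On the probe set of highest level, all knockout arrays lay below all wildtype arrays for S1pr1, S1pr4, Selplg and Cd44 and above them for S1pr5, which is 5 of 9 genes. The share of all genes whose groups did not overlap was 35.0%, with 12.7% lower and 22.2% higher in knockout samples. Without WT1 and KO1, only Cd44 was still called (-1.21, adjusted p = 0.0394 by limma), and without the 3 arrays of batch 3, which hold no knockout sample, the 4 genes kept their differences but missed the threshold (adjusted p 0.064 to 0.108 by limma, with 340 of all genes called). With arrays weighted by quality, the calls of S1pr1 (adjusted p = 0.0973 by limma), S1pr5 (0.131) and S1pr4 (0.134) ended, with 534 of all genes called.

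**Figure D1:**
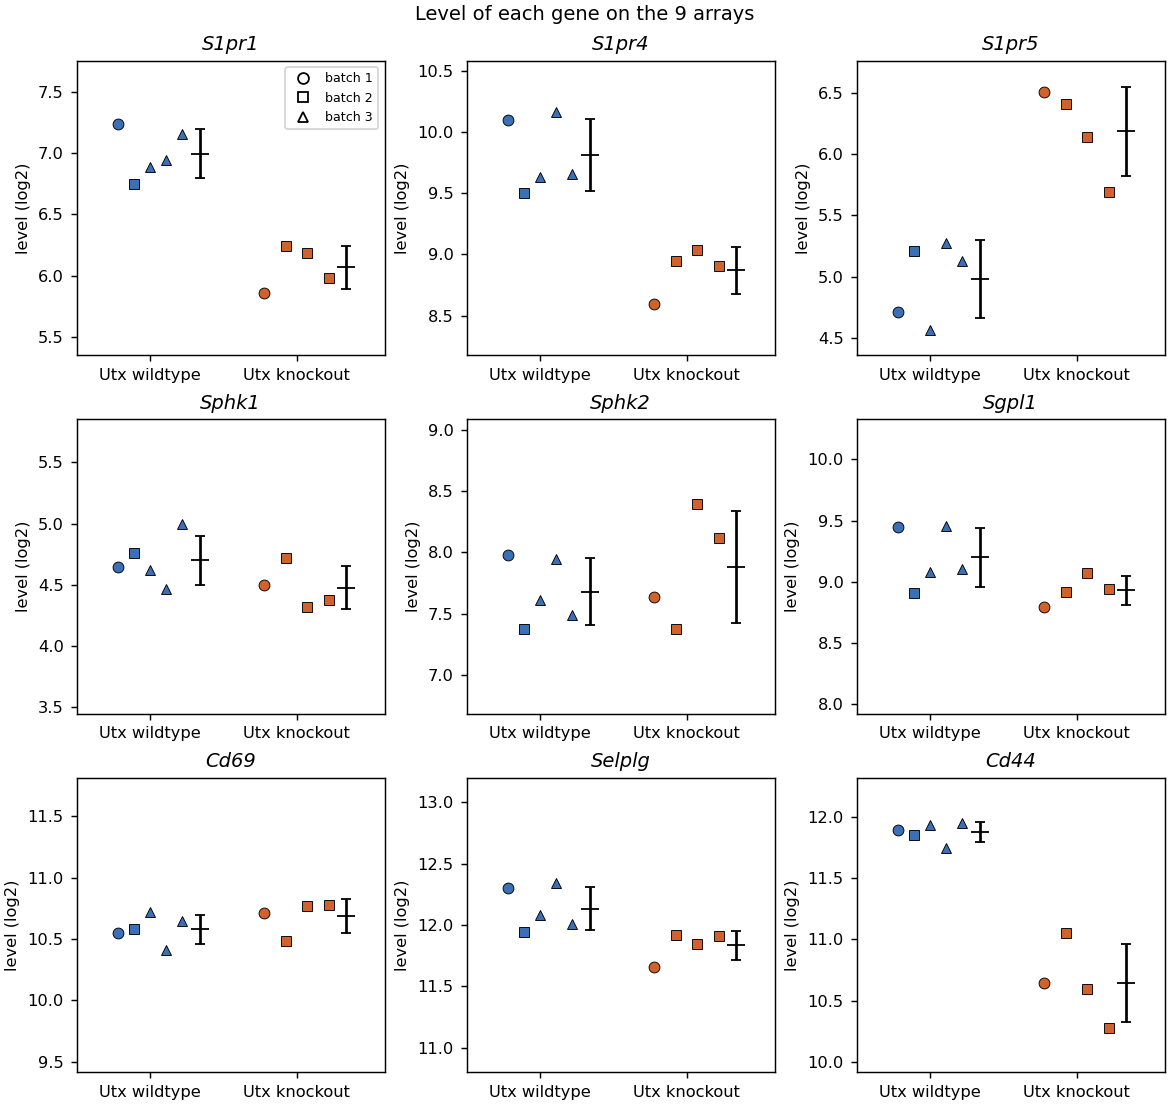
Level (log2) of each of the 9 genes on the probe set of highest mean level, 1 panel a gene. Points are arrays, blue for 5 Utx wildtype and orange for 4 Utx knockout samples, with circles, squares and triangles for batches 1, 2 and 3, and black marks are the mean and SD of each group. Every panel spans at least 2.4 log2 units, but the axes start at different levels. S1pr1, S1pr4, Selplg and Cd44 lie lower on every knockout array and S1pr5 higher, while the groups of the other 4 genes overlap.

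S1pr1 encodes the receptor with which thymocytes sense sphingosine-1-phosphate on leaving. On WT1 to WT5 it read 7.24, 6.75, 6.89, 6.95 and 7.16 and KO1 to KO4 read 5.86, 6.24, 6.18 and 5.98 (log2). The groups did not overlap, with 0.51 between the lowest wildtype array (WT2) and the highest knockout array (KO2). The mean went from 7.0 ± 0.20 (SD, n = 5) to 6.07 ± 0.18 (n = 4). S1pr1 thus fell 1.89-fold (log2 difference -0.92, SE 0.20, 95% interval -1.39 to -0.45, adjusted p = 0.0272 by limma). The call ended without WT1 or KO1, which leaves the difference within batch 2 (-0.62, adjusted p = 0.0934), and without KO3 (-0.96, adjusted p = 0.0501) or KO4 (-0.90, adjusted p = 0.0525).

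S1pr4 encodes a receptor of the same family found mainly on blood cells. The wildtype arrays WT1 to WT5 read 10.09, 9.50, 9.63, 10.16 and 9.66 and KO1 to KO4 read 8.59, 8.95, 9.04 and 8.91. All knockout arrays were lower than all wildtype arrays, and KO1 was the lowest. S1pr4 fell 1.90-fold, from 9.81 ± 0.30 to 8.87 ± 0.19 (log2 difference -0.92, SE 0.25, 95% interval -1.49 to -0.36, adjusted p = 0.0482 by limma). This call lay close to the threshold. It held without WT2 (-1.50, adjusted p = 0.0299 by limma), where the difference rests on batch 1 alone, with 1 array of each genotype. The call ended when any other single array was left out (-0.97 to -0.54, adjusted p 0.0551 to 0.177 by limma). It also ended when every one-gene probe set was tested as its own feature (adjusted p = 0.0518), with no filter (0.0525) and with arrays centred on their medians (0.0627).

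S1pr5 encodes the receptor best known for the exit of natural killer cells from bone marrow and lymph nodes. It went the other way from S1pr1 and S1pr4. Levels on WT1 to WT5 were 4.71, 5.21, 4.57, 5.28 and 5.13 and KO1 to KO4 read 6.51, 6.41, 6.14 and 5.69. Every knockout array was higher than every wildtype array, KO4 by the least. S1pr5 rose 2.36-fold, from 4.98 ± 0.32 to 6.19 ± 0.37 (log2 difference 1.24, SE 0.31, 95% interval 0.54 to 1.94, adjusted p = 0.0372 by limma). The call ended without WT1 or KO1 (0.87, adjusted p = 0.128), WT4 (1.24, 0.0571), WT5 (1.24, 0.0638) or KO3 (1.25, 0.0709). The wildtype levels lie just above the filter (4.54) and below the median of each array, and whether they are above background was not measured, so the size of the rise is uncertain.

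The other receptor genes of the family, S1pr2 and S1pr3, were not called. S1pr2, whose product restrains migration, read 7.43 to 8.06 in wildtype and 7.43 to 8.51 in knockout samples (log2 difference 0.24, 95% interval -0.54 to 1.01, adjusted p = 0.663 by limma), and its difference was -0.32 without WT2. S1pr3 stayed near the filter level on all arrays, 4.40 to 4.69 and 4.30 to 4.73 (log2 difference -0.09, adjusted p = 0.765 by limma).

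RefSeq promoter windows (GRCm38.p6) were found for 6 of the 9 genes, and the 250 bases before the start of transcription are shown for the 3 called genes among them, because Klf2 and Tbx21, genes of factors known to act on S1P receptor genes, moved in these samples. Capitals mark CCACCC or GGGTGG, the element of KLF factors on either strand. The T-box element TCACAC or GTGTGA was also searched and does not share bases with a KLF match in any of these windows.
S1pr4: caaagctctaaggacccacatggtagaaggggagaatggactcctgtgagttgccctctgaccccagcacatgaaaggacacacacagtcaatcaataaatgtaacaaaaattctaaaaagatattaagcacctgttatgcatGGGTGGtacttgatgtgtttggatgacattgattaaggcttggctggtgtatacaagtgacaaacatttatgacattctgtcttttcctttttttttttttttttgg
S1pr5: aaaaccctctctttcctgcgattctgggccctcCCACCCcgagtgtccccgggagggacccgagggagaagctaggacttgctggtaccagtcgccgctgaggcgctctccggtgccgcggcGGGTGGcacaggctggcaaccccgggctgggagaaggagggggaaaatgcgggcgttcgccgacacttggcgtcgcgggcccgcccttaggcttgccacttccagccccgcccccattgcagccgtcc
Cd44: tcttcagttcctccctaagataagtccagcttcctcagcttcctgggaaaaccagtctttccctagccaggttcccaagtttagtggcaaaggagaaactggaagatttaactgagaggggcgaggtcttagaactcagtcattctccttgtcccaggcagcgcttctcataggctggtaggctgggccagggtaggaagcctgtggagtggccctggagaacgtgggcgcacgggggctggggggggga
These windows are chr10:81500138-81500387 for S1pr4, chr9:21248444-21248693 for S1pr5 and chr2:102901666-102901915 for Cd44, all on the minus strand and printed 5′ to 3′ along the gene. The S1pr4 window holds 1 KLF element, which begins 107 bases before the start, and the S1pr5 window holds 2, beginning 217 and 128 bases before it. The Cd44 window holds 0, and none of the 3 holds the T-box element. Of all 32851 windows of this length, 28.1% hold a KLF element and 12.3% a T-box element, so a match is a description only. The letters are found in the windows of S1pr4, which fell, and of S1pr5, which rose. Some windows of Sphk1 and Sphk2, which were not called, hold the KLF letters too, and the window of Sgpl1, also not called, does not. Whether a KLF factor acts at any of these windows was not tested.

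Klf2 itself fell 1.75-fold. WT1 to WT5 read 9.36, 9.04, 9.07, 9.38 and 9.04 and KO1 to KO4 read 8.29, 8.20, 8.64 and 8.37, with no overlap (log2 difference -0.81, SE 0.20, 95% interval -1.26 to -0.36, adjusted p = 0.0367 by limma). Its call held without KO2 or KO3 and ended when any other array was left out (-1.07 to -0.63, adjusted p 0.0504 to 0.119). Foxo1, which encodes an activator of Klf2, read 9.64 to 10.26 in wildtype and 9.89 to 10.60 in knockout samples, overlapping widely (log2 difference 0.27, 95% interval -0.34 to 0.88, adjusted p = 0.523 by limma; -0.37 without WT2). Tbx21, which encodes T-bet, a factor needed for S1pr5 in natural killer cells, fell 2.11-fold (log2 difference -1.08, adjusted p = 0.0276 by limma) in the same samples in which S1pr5 rose.

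The enzyme genes were not called. Sphk1, one of the sphingosine kinase genes, stayed near the filter level, at 4.47 to 5.0 in wildtype and 4.32 to 4.72 in knockout samples (log2 difference -0.24, 95% interval -0.70 to 0.23, adjusted p = 0.461 by limma). Its other probe set, at 3.99 to 4.44 over all arrays, lay below the filter and was not tested. Sphk2, the other kinase gene, was the most variable of the 9 genes among knockout arrays. In order, WT1 to WT5 read 7.98, 7.37, 7.61, 7.95 and 7.49 and KO1 to KO4 read 7.63, 7.38, 8.40 and 8.11. KO3 and KO4 lay above all wildtype arrays and KO1 and KO2 within their range (log2 difference 0.22, 95% interval -0.52 to 0.96, adjusted p = 0.675 by limma). Its other probe set read 7.09 to 7.85 in wildtype and 7.76 to 8.79 in knockout samples, with a difference of 0.63 (95% interval -0.13 to 1.39, adjusted p = 0.245 by limma over all one-gene probe sets).

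Sgpl1, the lyase gene, read 8.91 to 9.46 in wildtype and 8.79 to 9.08 in knockout samples. The groups overlapped (log2 difference -0.22, 95% interval -0.69 to 0.25, adjusted p = 0.492 by limma), and the difference was 0.066 once WT1 or KO1 was left out. The other Sgpl1 probe set gave -0.21 (adjusted p = 0.607 by limma over all one-gene probe sets).

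Cd69 had the smallest standard error of the 9 genes. From WT1 to WT5 the levels were 10.55, 10.58, 10.72, 10.41 and 10.64 and KO1 to KO4 read 10.71, 10.48, 10.77 and 10.78. The groups overlapped, and the difference was 0.12 (SE 0.17, 95% interval -0.26 to 0.51, adjusted p = 0.646 by limma), which turned to -0.049 after another quantile normalization. A change of Cd69 RNA as large as that of S1pr1, in either direction, lies outside that interval.

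Selplg encodes PSGL-1, the ligand of P-selectin with which blood-borne progenitors enter the thymus. WT1 to WT5 read 12.30, 11.94, 12.08, 12.34 and 12.01 and KO1 to KO4 read 11.66, 11.92, 11.85 and 11.91. The groups did not overlap, but WT2 and KO2 differed by only 0.02, and the fitted difference did not pass (-0.28, 95% interval -0.71 to 0.14, adjusted p = 0.323 by limma).

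Cd44, which encodes the hyaluronan receptor that rises as iNKT cells mature, had the smallest p of the 9 genes. The levels of WT1 to WT5 were 11.89, 11.86, 11.94, 11.75 and 11.95 and KO1 to KO4 read 10.64, 11.06, 10.59 and 10.28. All knockout arrays were lower, KO2 by the least. Cd44 fell 2.34-fold, from 11.88 ± 0.08 to 10.64 ± 0.32 (log2 difference -1.23, SE 0.22, 95% interval -1.74 to -0.72, adjusted p = 0.0135 by limma). The call ended without WT2 (-1.25, adjusted p = 0.0901), where the difference rests on batch 1 alone, and held with each other array left out.

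Cd44 was also the only one of the 9 genes with more than 2 probe sets. All 4 were lower in knockout samples, without overlap: besides the one above, the others gave -1.28, -1.78 and -1.41 (adjusted p 0.0101 to 0.0167 by limma over all one-gene probe sets, of which 9.47% were called and 3.02% were called lower). The probe set at -1.78 read 9.91 to 10.35 in wildtype samples and 8.17, 8.97, 8.07 and 8.18 in KO1 to KO4, with KO2 apart. The one at -1.41 fell to 3.84 to 4.44 on knockout arrays, below the filter level, so its size is uncertain. Whether the probe sets differ among themselves was not tested.

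**Figure D2:**
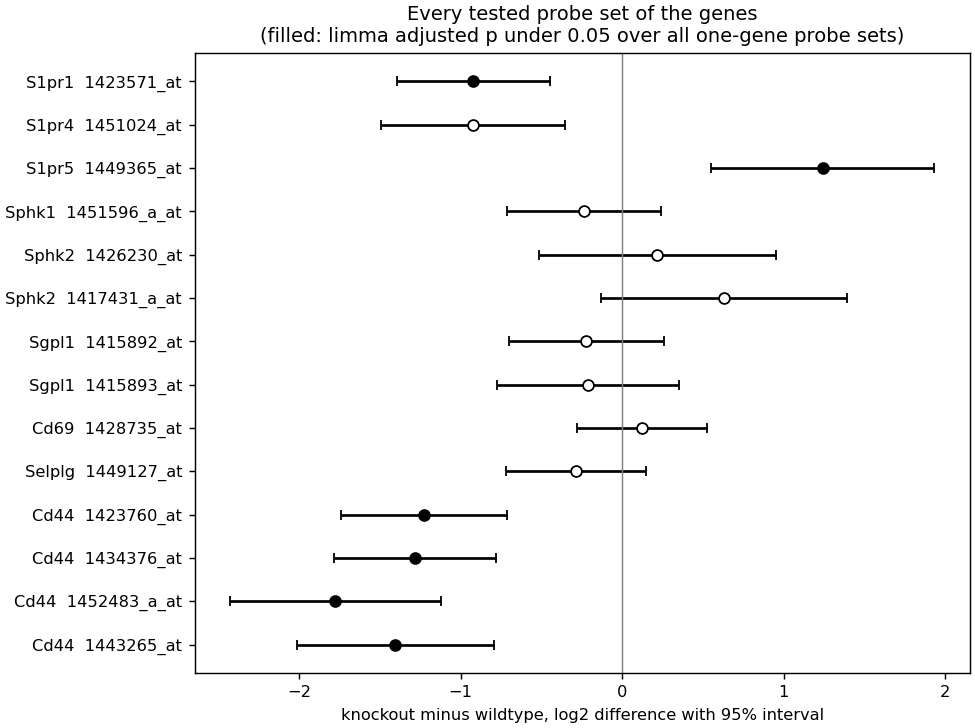
Knockout minus wildtype difference (log2, horizontal axis) with its 95% interval for the 14 probe sets of the 9 genes that passed the filter. Filled points have an adjusted p under 0.05 by limma over all one-gene probe sets. The 4 Cd44 probe sets lie between -1.78 and -1.23, S1pr5 at 1.24, and S1pr4 just misses the threshold here (0.0518).

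Both genotypes are present in batches 1 and 2, and the called genes had the same sign in each. S1pr1 differed by -1.38 in batch 1 and -0.62 in batch 2, S1pr4 by -1.50 and -0.54, S1pr5 by 1.80 and 0.87, and Cd44 by -1.25 and -1.21. The differences of the 3 receptor genes were larger in batch 1, which has 1 array of each genotype, while those of Cd44 were alike. Selplg differed by -0.64 and -0.05, Sgpl1 by -0.65 and 0.07, and Sphk2 by -0.34 and 0.59. In limma, the difference between the batches had an unadjusted p of 0.0434 for S1pr4 and 0.0547 for S1pr1. None of the 9 passed adjustment over all genes (adjusted p 0.364 to 0.978), where 0.0207% of genes did and 13.3% had an unadjusted p under 0.05.

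**Figure D3:**
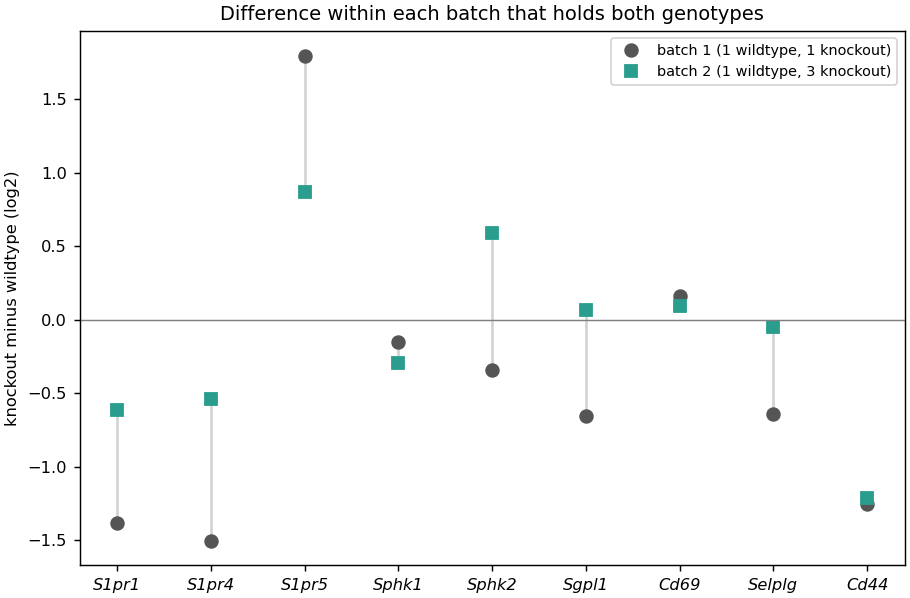
Knockout minus wildtype difference (log2, vertical axis) of each of the 9 genes within batch 1 (circles, 1 wildtype and 1 knockout array) and batch 2 (squares, 1 wildtype and 3 knockout arrays). S1pr1, S1pr4, S1pr5 and Cd44 keep their direction, and Sphk2 and Sgpl1 do not.

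Other genes of the pathway were read in 4 lists, chosen with earlier results of these data known. Across them, 6 genes rose and 11 fell of 84 tested, or 4 and 17 after another quantile normalization. Over all genes tested, 7.88% rose and 3.37% fell, so the count that rose is near that share. The list of ceramide and sphingosine-1-phosphate metabolism and transport had 28 genes tested, of which 2 rose and 2 fell (median -0.028). Cers6 (1.21, adjusted p = 0.0247 by limma) and Smpd4 (0.98, adjusted p = 0.0167), a ceramide synthase and a neutral sphingomyelinase gene, rose. Cers4 (-1.42, adjusted p = 0.032), another ceramide synthase gene, and Sgms1 (-1.19, adjusted p = 0.0104), a sphingomyelin synthase gene, fell. These 4 encode enzymes that make or use ceramide. The genes nearest to sphingosine-1-phosphate itself did not pass: the phosphatase gene Sgpp1 had -0.22 (adjusted p = 0.305 by limma), without overlap of the groups, and the exporter genes Spns2 and Mfsd2b had -0.099 (0.702) and -0.011 (0.981). Leaving out 1 array ended the calls of Cers6 (KO1, KO3 or WT1, where it was 0.88 to 1.17 with adjusted p 0.0542 to 0.0844), Cers4 (KO1, KO3, WT1 or WT5, where it was -1.42 to -1.03 with adjusted p 0.0537 to 0.107) and Smpd4 (WT2, 0.87, adjusted p = 0.165), but not that of Sgms1.

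Of 20 genes of receptor signalling, 0 rose and 0 fell at the adjusted threshold of limma, while 6 of 20 had an unadjusted p under 0.05 (median -0.020), near the 30.8% of all 14524 genes with such a p. Those of smallest p were Gnaq, a G protein gene (1.02, adjusted p = 0.0519), Rac2, a small GTPase gene of blood cells (-0.59, 0.0861), Elmo1, which partners DOCK2 (-0.50, 0.0893), and Arrb2, an arrestin gene (-0.60, 0.105). Other settings called some of them. Gnaq was called without WT2 (1.57, adjusted p = 0.0499 by limma), where the difference rests on batch 1 alone. Rac2 was called without KO2 (-0.68, adjusted p = 0.0454 by limma), and Arrb2 (-0.82, 0.0417) and Elmo1 (-0.76, 0.0452) after another quantile normalization. With no batch term all 4 were called (adjusted p 0.00197 to 0.00562 by limma), but so were 6342 of all 14524 genes.

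Of 18 egress regulators and homing receptors, 1 rose and 6 fell, with a median difference of -0.51, against 7.88% higher and 3.37% lower over all genes tested, and 15 of 18 had an unadjusted p under 0.05 by limma, against 30.8%. As this list was chosen with earlier results of these data known, these shares are a description only. Besides Klf2, the genes of smallest p were Cxcr3, a receptor for inflammatory chemokines (-2.05, adjusted p = 0.00732 by limma), Itgal, the alpha chain of the integrin LFA-1 (-0.67, 0.0354), and Itgb7, an integrin chain of gut homing (-1.16, 0.0358). Ccr7, the receptor that draws mature thymocytes to the medulla, rose 1.90-fold from 7.61 ± 0.29 to 8.54 ± 0.22 (log2 difference 0.93, adjusted p = 0.0461 by limma). Thus Ccr7 was higher in the samples in which S1pr1 and Klf2 were lower. Only the call of Cxcr3 among these 4 held with each array left out. Those of Itgal (-0.95 to -0.49, adjusted p 0.054 to 0.122) and Itgb7 (-1.16 to -0.65, adjusted p 0.0571 to 0.111) ended for 8 and 7 of the 9 arrays, and that of Ccr7 for 7 (0.64 to 1.11, adjusted p 0.0531 to 0.484; 0.64 without WT2). The Ccr7 call also ended after another quantile normalization (0.70, adjusted p = 0.082 by limma) and with no filter (0.0503), where that of Itgae, below, ended too (0.0526). The other genes that fell were Itgb1, an integrin beta chain gene (-0.84, adjusted p = 0.0371 by limma), and Itgae, the gene of the CD103 chain that binds epithelium (-1.04, adjusted p = 0.048). Their calls ended for 6 arrays (-0.84 to -0.46, adjusted p 0.0585 to 0.529) and 7 arrays (-1.05 to -0.54, adjusted p 0.0775 to 0.166).

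The partners of PSGL-1 and CD44 had 18 genes tested, of which 3 rose and 3 fell (median -0.28), against 7.88% higher and 3.37% lower over all genes tested. An unadjusted p under 0.05 by limma was found for 12 of 18, against 30.8% of all genes. Gcnt1 (-1.55, adjusted p = 0.0114 by limma) and St3gal6 (-1.38, adjusted p = 0.02), enzymes that build the sugar chains through which PSGL-1 binds selectins, fell, while Tpst1 (0.85, adjusted p = 0.0259), which sulfates tyrosines, rose. Tpst2, of the same family, was lower on every knockout array without passing (-0.69, adjusted p = 0.0602 by limma). Its wildtype mean was 10.60, against 6.81 for Tpst1. Hmmr, a hyaluronan receptor that also sits on the mitotic spindle and is a cell cycle gene, rose from 7.55 ± 0.13 to 10.44 ± 0.39 (log2 difference 2.92, adjusted p = 0.0024 by limma). The call of St3gal6 ended without WT1 or KO1 (-1.04, adjusted p = 0.0699) and that of Tpst1 without WT2 (0.67, adjusted p = 0.284). Fut7, a fucosyltransferase gene of selectin ligands, also fell (-1.09, adjusted p = 0.0451 by limma), and Ezr, which encodes ezrin, a link of CD44 to the cytoskeleton, rose (0.60, adjusted p = 0.0452). These calls ended with 7 arrays left out in turn (-1.15 to -0.58, adjusted p 0.0621 to 0.154) and with 8 (0.54 to 0.69, adjusted p 0.0648 to 0.195), and that of Ezr after another quantile normalization (0.49, adjusted p = 0.0659 by limma).

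**Figure D4:**
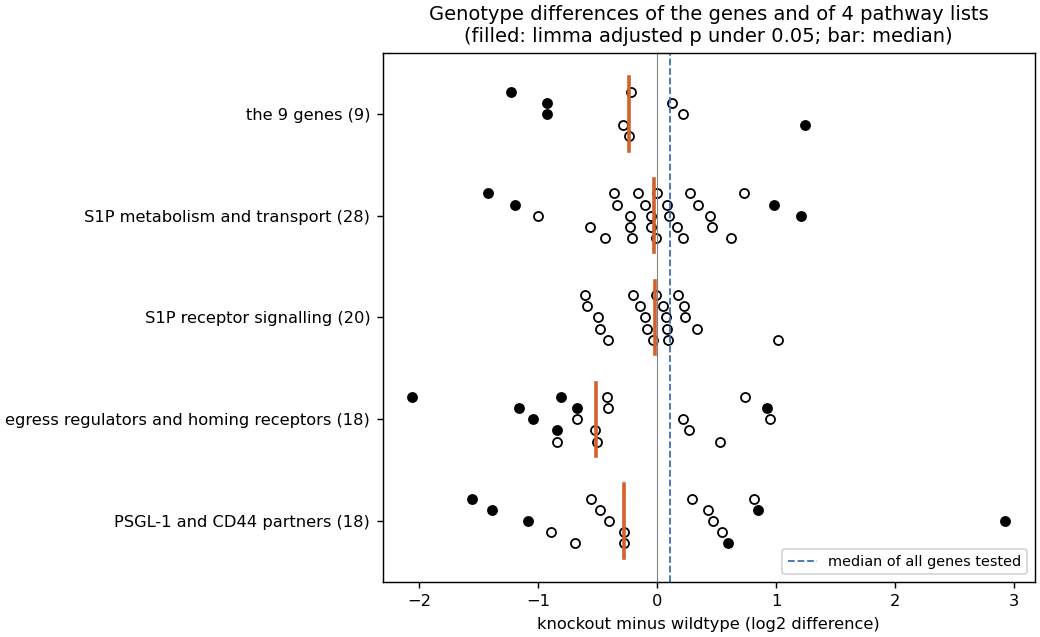
Knockout minus wildtype difference (log2, horizontal axis) of the 9 genes and of the tested genes of 4 pathway lists, numbers in brackets. Filled points have an adjusted p under 0.05 by limma, orange bars are list medians, and the dashed line is the median of all genes tested (0.11). The egress and homing list has its median at -0.51, and the 9 genes at -0.24.

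The genes whose profile over the 9 arrays, each centred on its mean, lay nearest to that of S1pr1 were Gpr65, an acid-sensing receptor gene of lymphocytes, Parp8, Mapre2 and Rsad2, with root mean square differences of 0.054, 0.068, 0.076 and 0.098 (log2). Gpr65 read 9.75 to 10.25 in wildtype and 8.85 to 9.23 in knockout samples, a difference of -0.93. As in S1pr1, WT1 was the highest and KO1 the lowest array for it. This likeness is a description over 9 arrays that share genotype and batch.

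**Figure D5:**
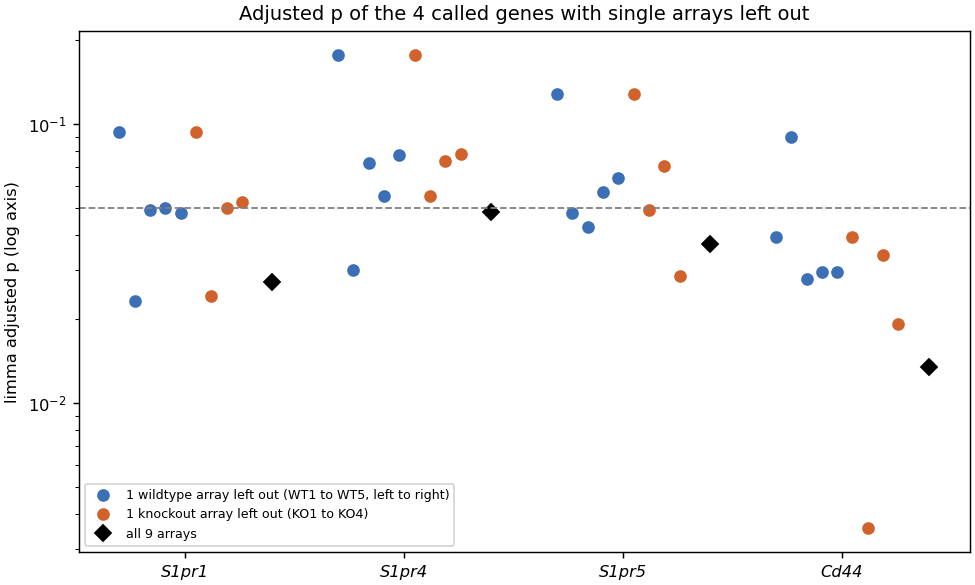
Adjusted p by limma (vertical log axis) for S1pr1, S1pr4, S1pr5 and Cd44 with 1 array left out at a time, in the order WT1 to WT5 (blue) and KO1 to KO4 (orange), and with all 9 arrays (black). The dashed line is 0.05. For Cd44 only the fit without WT2 lies above it (0.0901), and for S1pr4 only that without WT2 lies below it (0.0299). Without WT2 the difference rests on batch 1 alone.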

How the data were processed

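Each array has a deposited log2 level for every probe set, made by the authors with RMA, per the submitters' processing notes, with no version given; any batch adjustment before deposit is not given either. RNA was amplified before biotin labelling, per the labels' protocols, and amplification and probe summary can compress differences. Of 45101 probe sets, 34945 had 1 gene in the platform annotation, 932 several, 9160 none and 64 were controls. For each gene the probe set of highest mean was used, and 14524 genes were tested, those with a mean log2 level over 4.54, which is the 25th percentile across all probe sets. limma (version 3.58.1, R 4.3.3; lmFit, eBayes) was fitted to all 9 arrays with genotype and batch as factors, two-sided, with Benjamini-Hochberg adjustment at 0.05 over all genes. The other probe sets were fitted over 26876 one-gene probe sets. Adjusted p-values come from these limma fits over all genes or probe sets. Batch 3, without knockout arrays, adds to the spread only. The number of arrays limits precision. Nothing beyond the titles says that replicates are separate animals, and otherwise p-values measure only the spread between samples. The members and lists were chosen with earlier results of these data known. By the naming rule the text names each member, the 4 genes of smallest p of each list, S1pr2, S1pr3, Klf2, Foxo1, Ccr7, Kdm6a and the 4 genes most like S1pr1. Named after their values were seen were Sgpp1, Mfsd2b, Spns2, Itgb1, Itgae, Fut7, Ezr, Tbx21, Il2rb, Thy1, Zbtb16, Cd3e, Csf1r, Flt3, Siglech, the B cell markers, Xist, Eif2s3y, Kdm5d and Uty. Itgax, Zbtb46 and Tpst2 were also named in this way. Of the marker lists, iNKT cells had 1 gene higher and 2 lower of 11, naive T cells 1 and 0 of 7, neutrophils 0 and 0 of 6 (1 with an unadjusted p under 0.05 in limma), natural killer cells 1 and 2 of 6, and endothelial and stromal cells 1 and 0 of 8. Other settings tried were filters, scalings, another probe set rule, eBayes options, array weights, arrays left out, and batch dropped or replaced by the replicate number.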

Additional observations from a re-analysis of the deposited data

Results flagged for a closer look

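On 1 of the 4 Cd44 probe sets, KO2 read 8.97 (log2), above and apart from the other knockout arrays at 8.07 to 8.18 and below the wildtype arrays at 9.91 to 10.35. It was the only gap of its kind among 30 groups of arrays examined (15 probe sets in 2 genotypes), of which chance gives about 1 in 20. KO2 was also the highest knockout array for S1pr1 and for the main Cd44 probe set (11.06).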

How the results depend on the processing

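With all alternatives, S1pr1, S1pr4, S1pr5 and Cd44 kept the direction of their difference wherever they were tested, and S1pr5 was not tested with a filter at the 50th percentile. With batch as a factor, the difference comes from batches 1 and 2 only, where these genes share a sign. Leaving out batch 3 arrays repeats the same difference (S1pr1 -0.92). Leaving out WT1, KO1 or both, or taking batch 2 alone, gives that within batch 2 (S1pr1 -0.62). Such fits could not turn the direction, so they are no separate support for it. Of 3 genes lower and 1 higher, 0 and 0 were called without the batch 3 arrays, 1 and 0 without the batch 1 pair and with array weights, and 6 lower with batch as a random block. In that order, these settings called 340, 1745, 534 and 10045 of all 14524 genes, against 1634 in the main fit. The count of higher genes was 0 with the filter at the 50th percentile. With single arrays left out, 1 to 2 genes were lower and 0 to 1 higher. Pathway genes numbered 19 higher and 34 lower with no batch term, and 17 lower after another quantile normalization, against 6 and 11. Of all 14524 genes, 6342 were called with no batch term and 1789 after that normalization. With single arrays left out, pathway genes numbered 3 to 8 higher and 4 to 15 lower, and 860 to 2054 of all genes were called. The replicate number as a block in place of batch gave 14 pathway genes higher and 26 lower, and among the 9 genes the same counts of 3 and 1. It called Gnaq, Rac2, Elmo1 and Arrb2 (adjusted p 0.0139 to 0.0429 by limma), and 4290 of all 14524 genes. Samples of the same number did not pair: their deviations from the group means correlated at -0.922, 0.085, 0.023 and 0.152 across genes. Differences that turned sign, none of them called, were those of Cd69 (-0.049) and S1pr3 (0.051) after another quantile normalization, of Sgpl1 (0.066) without the batch 1 pair and in batch 2 alone, of Sgpl1 with single arrays left out (-0.65 to 0.066; positive without WT1 or KO1), and of Sphk2 (-0.34 to 0.59), S1pr2 (-0.32 to 0.61) and Foxo1 (-0.37 to 0.70), each negative only without WT2. Without WT2 the difference is that of the batch 1 pair, and without WT1 or KO1 it is that within batch 2. The turns of sign of Sphk2, S1pr2, Foxo1 and Sgpl1 thus restate that their differences have opposite signs in batches 1 and 2. The cause of the other changes was not tested, apart from the smaller number of arrays or genes where some were left out.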
